A study of Sus scrofa with 11 samples.

Results

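Enzymes that attach sulfate, sugar or glutathione to small molecules, together with enzymes that oxidise or reduce alcohols, aldehydes and ketones, were followed in the livers of irradiated pigs. Members were taken by symbol from 7 families: cytosolic sulfotransferases (SULT), UDP-glycosyltransferases (UGT), soluble glutathione transferases (GST), microsomal glutathione transferases (MGST), alcohol dehydrogenases (ADH), aldehyde dehydrogenases (ALDH) and aldo-keto reductases (AKR). Of 12505 genes in the table, 39 had such a symbol, and 38 reached at least 1 FPKM in at least 2 libraries (FPKM, the fragments of a gene scaled to its length and to the size of the library). They were 6 SULT, 1 UGT, 6 GST, 3 MGST, 2 ADH, 15 ALDH and 5 AKR genes. At the edge of this threshold, SULT1B1 was inside it through the 2 control libraries, and ALDH3A1 was outside it with 1.87 FPKM in 1 library of 40 Gy and at most 0.451 FPKM in the other 10. Of the 38 members, 30 reached 1 FPKM in all 11 libraries and 8 did not (SULT1A3, SULT1B1, SULT1C2, GSTM3, GSTT4, ALDH1A2, ALDH1A3 and ALDH18A1). Other members of these families known from the pig or from other species, such as the UGT1A and UGT2B enzymes, are not analysed here.

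Conjugation makes a compound more soluble in water, so that it can leave the liver in bile or blood. Sulfotransferases take sulfate from the donor PAPS, glutathione transferases use the tripeptide glutathione, and glucuronosyltransferases use UDP-glucuronic acid. Alcohol and aldehyde dehydrogenases oxidise ethanol, retinoids, fatty aldehydes and the aldehydes that arise when lipids are peroxidised, while aldo-keto reductases work in the opposite direction with NADPH. Hepatocytes are the main site of most of these reactions, and several of the same enzymes also act in amino acid, steroid and bile acid metabolism.

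RNA was sequenced from wild-type pig liver in 11 libraries: 2 controls labelled day 0, and 3 libraries each after hepatic irradiation with 20, 30 or 40 Gy, all labelled day 35. Libraries are named here by group and replicate, such as 40Gy-1. For the strain and age of the pigs and the fractionation of the dose no value is given in the sources used, and the labels do not say that the libraries of a group came from separate animals, so p-values measure only the spread between these libraries. Irradiation and the time since day 0 cannot be told apart in any comparison with the controls, whereas 40 Gy and the lower doses share the day.

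The labels call the cell type and the cell line hepatocyte, and the tissue liver. Of 10 hepatocyte markers 9 were in the table, and their FPKM summed to 46256 to 76418 in the controls, 49027 to 61524 at 20 Gy, 54114 to 66560.1 at 30 Gy and 29754 to 32709.8 at 40 Gy. Markers of other cells were present as well: 9 of 9 macrophage markers summed to between 539.9 and 1527 FPKM over all libraries, and 10 of 10 endothelial markers to between 143 and 397 FPKM. The libraries are therefore described as tissue, in which fewer cells of a type and less RNA per cell cannot be told apart. The read depth is unknown, since the table holds FPKM, and errors are those of the libraries within groups.

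Before the results, 2 pairs of libraries must be named, because they were far more alike than the rest. Over 6562 genes with a mean of at least 5 FPKM, the robust spread of the log2 ratio was 0.102 between 20Gy-3 and 30Gy-3, which carry different dose labels, and 0.11 between 30Gy-1 and 30Gy-2. The other 53 pairs lay between 0.257 and 0.845. Whether either pair is 1 sample sequenced again was not tested. Counts of members, calls of members and calls of listed genes are therefore also given in a reduced set of 8 libraries, in which 30Gy-1 and 30Gy-2 were averaged and 20Gy-3 and 30Gy-3 were left out, so that 30 Gy kept 1 library, assumed to vary like the other groups. Within 40 Gy, 40Gy-2 and 40Gy-3 resembled each other (spread 0.283), and 40Gy-1 was nearest to 20Gy-2 (0.479).

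Differences were computed between group means of log2(FPKM + 1), given with their standard error (SE), and tested with limma across 11644 genes. A gene was said to have risen or fallen where its Benjamini-Hochberg adjusted p was under 0.05 over all genes tested. Of the 38 members, 22 passed in at least 1 of 5 comparisons and 16 in none, and none of these 16 passed in the reduced set. SULT1B1 reached 1 FPKM in the controls only, so its membership by itself favoured a fall against control, and counts are also given without it. The 4 comparisons with control share the same 2 control libraries and are not independent of each other.

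Against control, 5 of 38 members changed at 20 Gy (13.2%, 3 up and 2 down), where 4.23% of all genes tested did (2.03% up, 2.2% down). At 30 Gy 4 members changed (10.5%, 2 up and 2 down), against 3.03% of all genes (1.32% up, 1.71% down). At 40 Gy 12 members changed (31.6%, 2 up and 10 down), against 7.39% of all genes (2.99% up, 4.41% down). The mean of the 3 doses differed from control in 6 members (15.8%, 3 up and 3 down), against 4.71% of all genes (1.86% up, 2.84% down). The median log2 difference over the 38 members was -0.52 at 40 Gy against control, beside 0.06 over all genes, and -0.03 at 20 Gy and 0.01 at 30 Gy. Without SULT1B1, 4 of 37 members passed at 20 Gy, 3 at 30 Gy, 11 at 40 Gy and 5 for the mean of the doses.

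At 40 Gy against the mean of 20 and 30 Gy, 16 members changed (42.1%, 3 up and 13 down). Among all genes, 21.5% passed in the same comparison, 11.8% higher and 9.71% lower. The median log2 difference was -0.57 over the members and 0.07 over all genes. In the reduced set the members called were 1, 2, 0, 1 and 1, for irradiated against control, for 20, 30 and 40 Gy against control, and for 40 Gy against 20 and 30 Gy. Without SULT1B1 these counts were 0, 1, 0, 0 and 1. The 0 at 30 Gy among all members is limma's count in that set, where 6 members had an unadjusted p under 0.05.

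Single libraries moved these counts. Without control-2, 3 members passed for irradiated against control, 2 at 20 Gy and 1 at 30 Gy. Without control-1, the counts were 8 at 20 Gy, 8 at 30 Gy and 2 at 40 Gy. Without 40Gy-1, they were 15 for irradiated against control, 10 at 20 Gy and 10 at 30 Gy. Leaving out 20Gy-1 or 20Gy-3 gave 3 at 20 Gy, and leaving out 40Gy-2 or 40Gy-3 gave 6 at 40 Gy against control. With only the libraries of 40 Gy and control fitted, 0 members passed by limma (16 at an unadjusted p under 0.05). Without 40Gy-2, 10 passed for 40 Gy against the lower doses, and without 40Gy-1, 24 did.

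**Figure D1:**
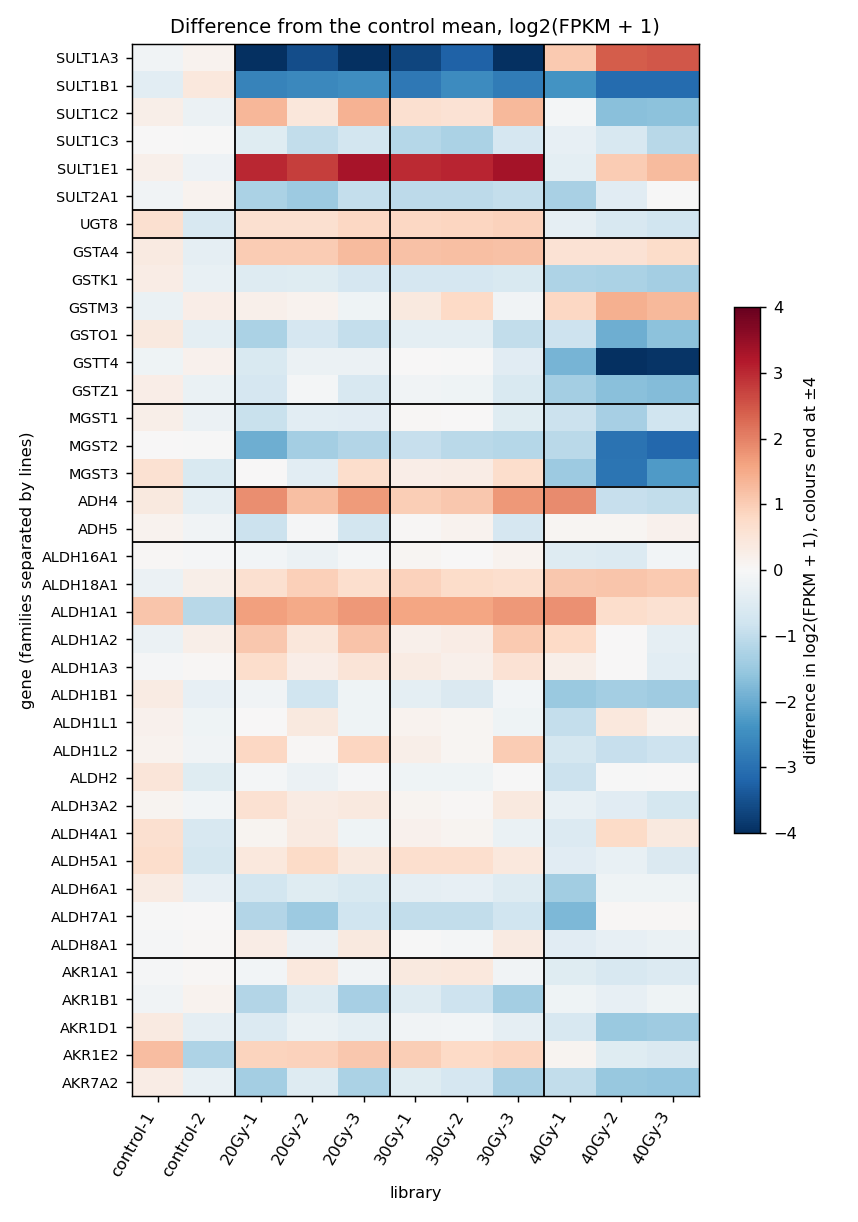
Heat map of the 38 members (rows, by family) in 11 libraries (columns, by group); colour is the difference of log2(FPKM + 1) from the mean of the 2 controls, with colours ending at 4 log2 units either way. SULT1A3 is lower at 20 and 30 Gy and higher at 40 Gy, SULT1E1 is higher at 20 and 30 Gy, and GSTT4, MGST2 and MGST3 are lower at 40 Gy, most in 40Gy-2 and 40Gy-3.

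Among the sulfotransferases, SULT1A3 had the largest fall of any member at 20 Gy and 30 Gy against control and the largest rise at 40 Gy against the lower doses, while SULT1E1 had the largest rise at 20 Gy and 30 Gy. By mean FPKM over the 4 groups the order was SULT2A1 (368), SULT1E1 (288), SULT1A3 (51.6), SULT1C3 (30.8), SULT1C2 (7.75) and SULT1B1 (2.16). In each of the 20 Gy and 30 Gy comparisons with control, 3 of 6 changed, 1 up and 2 down, SULT1B1 included. Of all genes tested, 4.23% and 3.03% changed in these comparisons. Apart from SULT1B1, the changed genes were SULT1A3, which fell, and SULT1E1, which rose. At 40 Gy against control, where 7.39% of all genes passed, 1 fell, which was SULT1B1, and no other sulfotransferase passed limma's test. Since SULT1B1 reached 1 FPKM in the controls only, its membership by itself favoured its falls against control. At 40 Gy against the lower doses, where 21.5% of all genes passed, 1 rose and 2 fell. Sequences of this family are similar and reads may be split between copies, which makes the single values uncertain.

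SULT1A3, a phenol sulfotransferase that also sulfates catecholamines in humans, lies on chromosome 3 from 18351205 to 18354653 (Sscrofa11.1), where the gene table gives SULT1A1 as another name and places BOLA2B over part of it. It was at 34 and 41.3 FPKM in the controls, at 0.464, 2.31 and 1.19 FPKM after 20 Gy, at 2, 3.06 and 0.424 FPKM after 30 Gy, and at 78, 206 and 214 FPKM after 40 Gy. None of these ranges overlapped except those of 20 and 30 Gy. It fell by 4.13 ± 0.535 (log2, SE) at 20 Gy (adjusted p = 0.00274) and fell by 3.89 ± 0.535 at 30 Gy (adjusted p = 0.00459), which is 17.5-fold and 14.9-fold lower on the FPKM + 1 scale.

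At 40 Gy SULT1A3 was 1.98 ± 0.535 log2 units above control, which did not pass (adjusted p = 0.052), although all 3 libraries lay above both controls. Against 20 and 30 Gy it rose by 5.99 ± 0.414, or 63.7-fold on the FPKM + 1 scale (adjusted p = 5.01e-05). This rise passed in every alternative run (adjusted p 8.94e-06 to 0.00628), as did the fall at 20 Gy (0.000715 to 0.0382). The fall at 30 Gy did not pass without control-2 (0.0593) or in the reduced set (0.27). The mean of the 3 doses fell by 2.01 ± 0.458 against control (adjusted p = 0.0357), a mean over groups that lay on opposite sides of the controls. That last call was lost in 9 of 21 alternatives, among them leaving out control-1, control-2, 20Gy-1, 20Gy-3 or 30Gy-1 (0.0617 to 0.253).

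SULT1B1, which sulfates thyroid hormones and small phenols, was at 5.2 and 10.3 FPKM in the controls, at 0.308 to 0.494 FPKM after 20 Gy, at 0.16 to 0.473 FPKM after 30 Gy, and at 0.601, 0 and 0 FPKM after 40 Gy. Every irradiated library was below both controls and below 1 FPKM. Since it reached 1 FPKM in the controls only, its differences from control are given as a description, without a test: -2.58 ± 0.285 at 20 Gy, -2.72 ± 0.285 at 30 Gy and -2.84 ± 0.285 at 40 Gy (log2, SE). They were -2.63, -2.68 and -2.84 in the reduced set.

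SULT1E1, the estrogen sulfotransferase, lies on chromosome 8 from 66811536 to 66838181. It was at 65 and 48.9 FPKM in the controls, at 466, 393 and 566 FPKM after 20 Gy, at 456, 478 and 579.8 FPKM after 30 Gy, and at 42.5, 114 and 138 FPKM after 40 Gy. The 6 libraries of 20 and 30 Gy lay above all others, and the 40 Gy libraries overlapped the controls.

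SULT1E1 rose by 3.04 ± 0.428 at 20 Gy (adjusted p = 0.00419) and by 3.13 ± 0.428 at 30 Gy (adjusted p = 0.00456), which is 8.2-fold and 8.76-fold. From 20 and 30 Gy to 40 Gy it fell by 2.46 ± 0.332 (adjusted p = 0.00118). Over all doses it was higher than control by 2.26 ± 0.367 (adjusted p = 0.00763). In the reduced set the adjusted p of these 4 differences was 0.0875, 0.351, 0.0572 and 0.109. Leaving out control-2 also ended the 3 calls against control (0.0532, 0.06 and 0.118), and leaving out control-1 ended the call over all doses (0.0585).

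SULT1C2, of the phenol sulfotransferase subfamily, was at 6.23 and 4.24 FPKM in the controls, at 14.4, 7.38 and 15.2 FPKM after 20 Gy, at 8.53, 8.29 and 14.1 FPKM after 30 Gy, and at 4.87, 0.95 and 0.959 FPKM after 40 Gy. All 40 Gy libraries were below those of the lower doses, and 40Gy-1 lay within the controls. Relative to 20 and 30 Gy, the 40 Gy group fell by 2.07 ± 0.374 (adjusted p = 0.00503), a call that was lost only in the reduced set (0.106) among 22 alternatives.

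The remaining sulfotransferases passed in no comparison. SULT2A1, which sulfates steroids and bile acids, was at 500.5 and 618 FPKM in the controls, at 203 to 287 FPKM after 20 Gy, at 266 to 288 FPKM after 30 Gy, and at 225, 408 and 554 FPKM after 40 Gy. All libraries of 20 and 30 Gy lay below the controls. The difference at 20 Gy was -1.22 ± 0.339 (adjusted p = 0.0731, reduced set 0.272). SULT1C3 was at 45.6 and 44.4 FPKM in the controls and at 18.3 to 35.8 FPKM in the irradiated libraries, all of them lower. Its smallest adjusted p was 0.0747, for all doses together, with a difference of -0.82 ± 0.23 (reduced set 0.26).

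**Figure D2:**
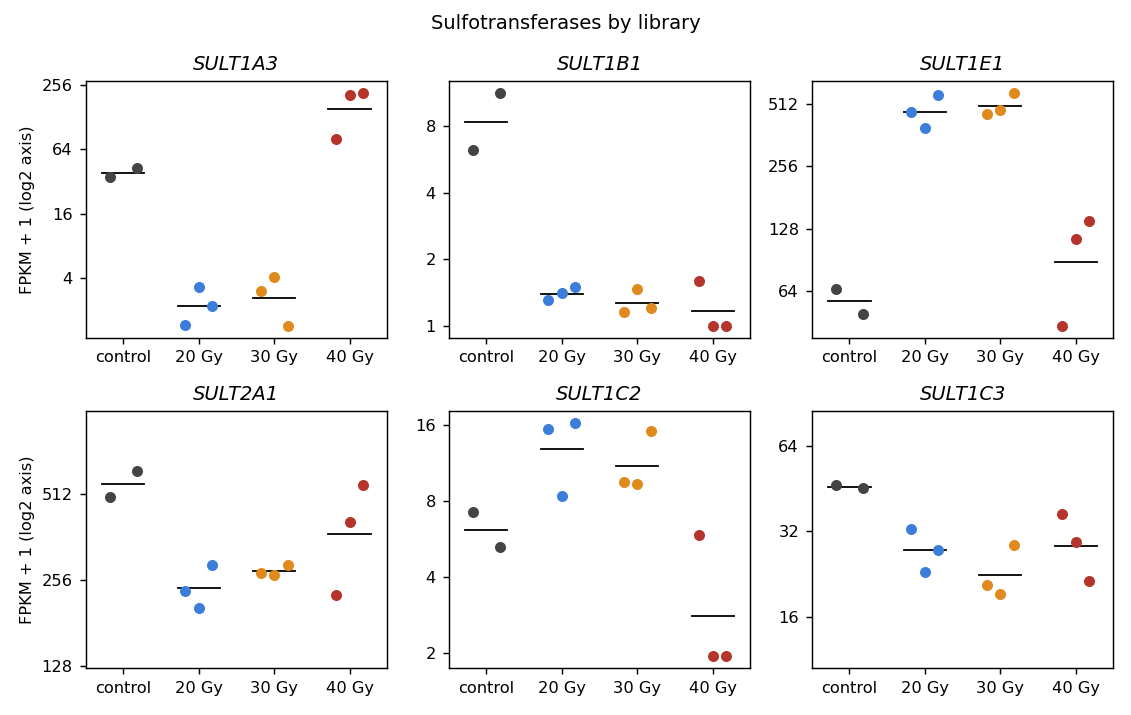
FPKM + 1 on a log2 axis for the sulfotransferases by group (control, 20, 30 and 40 Gy); points are libraries, bars are means of the log2 values, and each panel has its own range. SULT1A3 lies lowest at 20 and 30 Gy and highest at 40 Gy, while SULT1E1 lies highest at 20 and 30 Gy.

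Among the glutathione transferases, the 40 Gy libraries were lower in most genes. At 40 Gy against control, where 7.39% of all genes passed, 5 of 6 soluble enzymes changed (1 up, 4 down) and 2 of 3 microsomal ones fell. Against 20 and 30 Gy, where 21.5% of all genes passed, 1 soluble enzyme rose and 3 fell, and 1 microsomal enzyme fell. At 20 Gy and at 30 Gy against control, where 4.23% and 3.03% of all genes passed (2.03% and 1.32% higher), 1 soluble enzyme rose at each dose. No other GST or MGST passed limma's test at these doses, with 4 of the 9 at an unadjusted p under 0.05 at 20 Gy and 2 at 30 Gy. By mean FPKM over the groups the soluble enzymes ranged from GSTO1 (405) and GSTZ1 (169) to GSTM3 (1.19), and MGST1 (144) led the microsomal ones.

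GSTT4, of the theta class, was at 34.3 and 44.3 FPKM in the controls, at 25.4, 32.7 and 33 FPKM after 20 Gy, at 39.2, 38.9 and 28.5 FPKM after 30 Gy, and at 10.1, 0.628 and 1.65 FPKM after 40 Gy. All of the 40 Gy values lay below the others, and 40Gy-1 lay well above the other 40 Gy libraries. The 40 Gy group fell by 3.46 ± 0.616 against control (adjusted p = 0.0104) and fell by 3.21 ± 0.477 against 20 and 30 Gy (adjusted p = 0.00206). Without control-1 and without control-2 the first had an adjusted p of 0.0643 and 0.0746. In the reduced set the differences were -3.46 and -3.25 (adjusted p = 0.0717 and 0.0612).

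GSTZ1, the maleylacetoacetate isomerase of tyrosine breakdown, lies on chromosome 7 from 100392217 to 100404025. It was at 284 and 197 FPKM in the controls, at 149, 222 and 152 FPKM after 20 Gy, at 213, 210.1 and 156 FPKM after 30 Gy, and at 92.1, 73.6 and 70.1 FPKM after 40 Gy. Every 40 Gy library was below every other library. At 40 Gy it fell by 1.59 ± 0.269 against control (adjusted p = 0.00853) and fell by 1.20 ± 0.208 against the lower doses (adjusted p = 0.00419). The first call was lost without control-1 (0.0794), and both in the reduced set (0.0666 and 0.0744).

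GSTK1, found in mitochondria and peroxisomes, lies on chromosome 18 from 6992623 to 6999068. It was at 250.3 and 164 FPKM in the controls, at 141, 145 and 126 FPKM after 20 Gy, at 127, 128 and 134 FPKM after 30 Gy, and at 84.7, 84.2 and 78.9 FPKM after 40 Gy. The 3 sets of libraries did not overlap, with the controls highest, 20 and 30 Gy together in between and 40 Gy lowest. It fell by 1.28 ± 0.21 at 40 Gy against control (adjusted p = 0.00719), fell by 0.68 ± 0.162 at 40 Gy against the lower doses (0.0162) and fell by 0.83 ± 0.179 over all doses (0.0295).

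These calls of GSTK1 were lost in the reduced set (adjusted p = 0.0758, 0.193 and 0.251). Leaving out control-1 ended the first (0.0558), and leaving out 40Gy-2 or 40Gy-3 the second (0.0649 and 0.0646). The third was lost in 11 of 21 alternatives, among them the replicate block (0.066) and quantile normalization (0.0548). It did not pass when control-1, 40Gy-2, a library of the pair 30Gy-1 and 30Gy-2, 20Gy-1 or 20Gy-3 was left out (0.0503 to 0.283).

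GSTA4, which conjugates the lipid peroxidation product 4-hydroxynonenal, lies on chromosome 7 from 46635903 to 46656491. It was at 19.1 and 11.2 FPKM in the controls, at 30.7, 30.6 and 36.6 FPKM after 20 Gy, at 34.2, 34.9 and 34.4 FPKM after 30 Gy, and at 22.4, 22.2 and 24.9 FPKM after 40 Gy. All irradiated libraries exceeded both controls, and the 40 Gy libraries lay between the controls and the lower doses. It rose by 1.09 ± 0.216 at 20 Gy (adjusted p = 0.0208), by 1.18 ± 0.216 at 30 Gy (0.0184) and by 0.97 ± 0.185 over all doses (0.0181). At 40 Gy its difference from control was 0.62 ± 0.216 (adjusted p = 0.108).

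The rise of GSTA4 depended on single libraries. Without control-2 the adjusted p was 0.148 at 20 Gy, 0.141 at 30 Gy and 0.207 over all doses. The call at 20 Gy was also lost without 20Gy-1 or 20Gy-3 (0.0723 and 0.0711), and the call at 30 Gy without 30Gy-1, 30Gy-2 or 30Gy-3 (0.0528 to 0.0759). In the reduced set the values were 0.219, 0.593 and 0.181.

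GSTM3, of the mu class, was the soluble transferase that rose at 40 Gy, from a low level. It reached 1 FPKM only in the 40 Gy libraries and in 30Gy-1 and 30Gy-2. With that pair taken as 1 sample, its membership by itself favoured a rise at 40 Gy. The counts of members that rose at 40 Gy include GSTM3. It was at 0.314 and 0.871 FPKM in the controls, at 0.395 to 0.797 FPKM after 20 Gy, at 1.03, 1.74 and 0.424 FPKM after 30 Gy, and at 1.77, 3.24 and 2.89 FPKM after 40 Gy. Those of 40 Gy lay above all others, with 40Gy-1 just above 30Gy-2. It rose by 1.19 ± 0.298 against control (adjusted p = 0.0404) and by 0.99 ± 0.231 against the lower doses (0.0155). The first call was lost in 13 of 21 alternatives, including the reduced set (0.0837) and without any 1 library other than 30Gy-2, 30Gy-3 and 40Gy-1 (0.0519 to 0.247). The second was lost in 4 of 21, including the reduced set (0.145) and without 40Gy-2 or 40Gy-3 (0.0845 and 0.0647).

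GSTO1, an omega-class enzyme that also reduces dehydroascorbate, was at 824 and 481 FPKM in the controls, at 263, 399 and 321 FPKM after 20 Gy, at 481, 481 and 319.9 FPKM after 30 Gy, and at 356, 162 and 203 FPKM after 40 Gy. Its 40 Gy libraries were all below the controls but overlapped the lower doses. It fell by 1.47 ± 0.378 at 40 Gy against control (adjusted p = 0.0442). That call was lost in 15 of 22 alternatives, including the reduced set (0.156) and without any 1 library other than 30Gy-3 and 40Gy-1 (0.0516 to 0.269).

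MGST3, a microsomal transferase and peroxidase, lies on chromosome 4 from 85069603 to 85095022. It was at 181 and 77.5 FPKM in the controls, at 119, 88.4 and 192 FPKM after 20 Gy, at 141, 144 and 195 FPKM after 30 Gy, and at 42.9, 14.6 and 23.9 FPKM after 40 Gy. The 40 Gy libraries lay below all others, whose groups overlapped. At 40 Gy it fell by 2.21 ± 0.488 against control (adjusted p = 0.0248) and fell by 2.47 ± 0.378 against 20 and 30 Gy (0.00241). The first call was lost without control-1, 40Gy-2 or 40Gy-3 (0.0598 to 0.197), and both in the reduced set (0.0913 and 0.0681).

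MGST2, which can make leukotriene C4, was at 119.7 and 117 FPKM in the controls, at 29.7, 45.4 and 51.6 FPKM after 20 Gy, at 62.1, 55.7 and 53.3 FPKM after 30 Gy, and at 55.6, 14.5 and 12.5 FPKM after 40 Gy. All irradiated libraries lay below both controls, and 40Gy-1 lay among those of 20 and 30 Gy. It fell by 2.39 ± 0.514 at 40 Gy against control (adjusted p = 0.0223). Leaving out control-1, control-2, 40Gy-2 or 40Gy-3 (0.0571 to 0.131) ended this call, as did the reduced set (0.106). MAML3, at 0.147 to 1.9 FPKM, overlaps this gene.

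MGST1, the most abundant microsomal enzyme, passed in no comparison. It was at 220.2 and 161 FPKM in the controls, at 100.5 to 140.2 FPKM after 20 Gy, at 134 to 193 FPKM after 30 Gy, and at 102, 74.6 and 107 FPKM after 40 Gy. The 40 Gy libraries were below both controls, 2-fold on the FPKM + 1 scale (SE 0.271 in log2, adjusted p = 0.0527, reduced set 0.166).

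**Figure D3:**
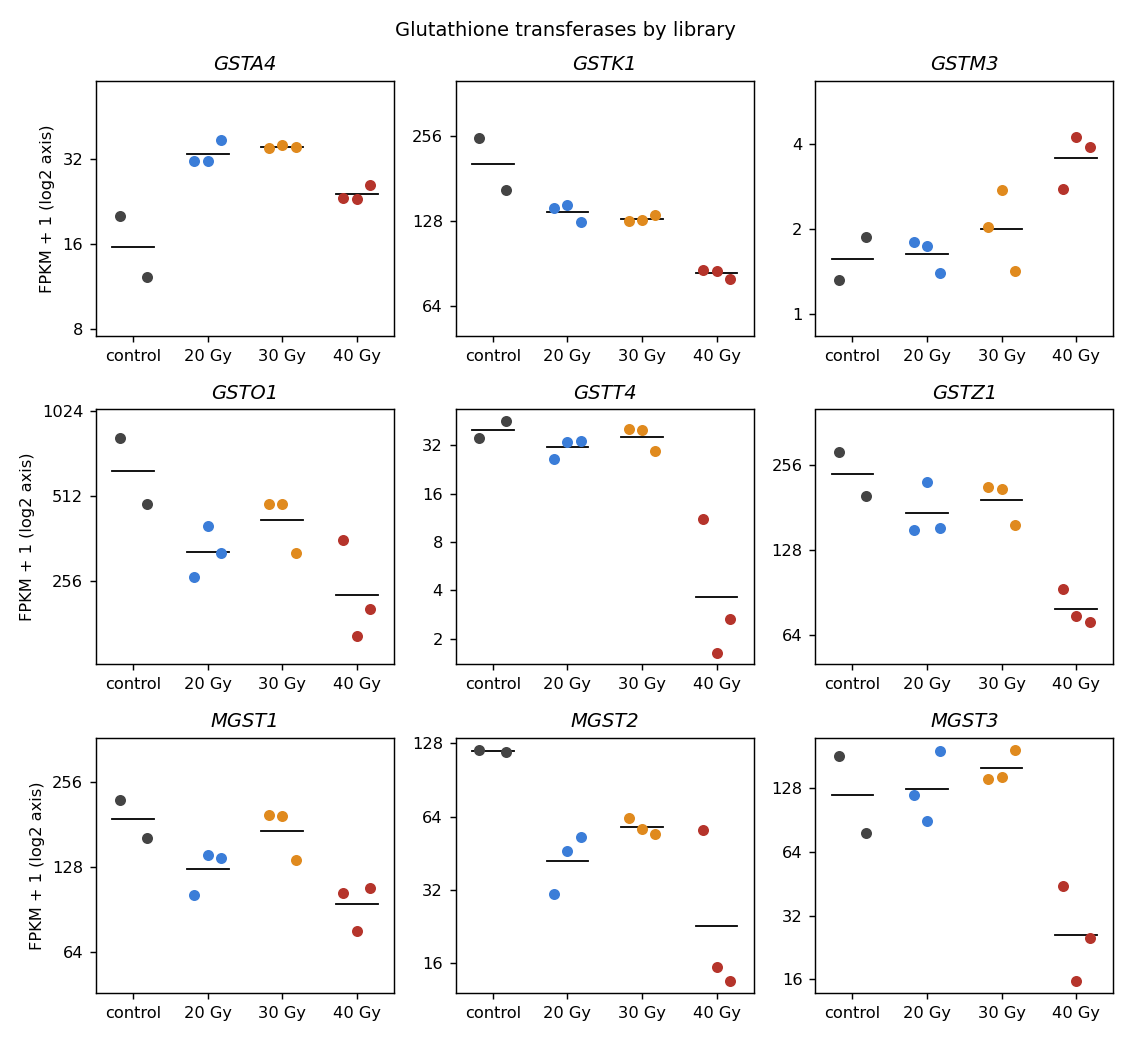
FPKM + 1 on a log2 axis for the soluble and microsomal glutathione transferases by group; points are libraries, bars are means of the log2 values, and each panel has its own range. GSTT4, GSTZ1, GSTK1 and MGST3 are lowest in the 40 Gy libraries, and GSTA4 is lowest in the controls.

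UGT8, the only UDP-glycosyltransferase among the members, adds galactose to ceramide and is not one of the enzymes that glucuronidate drugs. It was at 10.6 and 3.78 FPKM in the controls, at 10.7, 10.5 and 12.2 FPKM after 20 Gy, at 12.3, 12.4 and 13.3 FPKM after 30 Gy, and at 4.81, 3.78 and 3.33 FPKM after 40 Gy. The 40 Gy libraries lay below those of the lower doses, and the controls spanned both. Its level at 40 Gy fell by 1.38 ± 0.239 against 20 and 30 Gy (adjusted p = 0.00418), which was lost only in the reduced set (0.101) among 22 alternatives.

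The alcohol dehydrogenases ADH4, which oxidises ethanol and retinol, and ADH5, which oxidises the glutathione adduct of formaldehyde, passed in no comparison by limma. They are neighbours on chromosome 8, ADH4 from 121225485 to 121259262 and ADH5 from 121266794 to 121282313. ADH4 was at 65.5 and 37.2 FPKM in the controls, at 180.1, 114 and 163 FPKM after 20 Gy, at 98.8, 105 and 168 FPKM after 30 Gy, and at 187, 25.9 and 24.6 FPKM after 40 Gy. All libraries of 20 and 30 Gy lay above the controls, but 40Gy-1 was the highest of all and 40Gy-2 and 40Gy-3 the lowest. The difference between 40 Gy and the lower doses was -1.42 ± 0.568 (adjusted p = 0.0982, reduced set 0.393). ADH5 ranged from 55.2 FPKM in 20Gy-1 to 114 FPKM in 40Gy-3, and its groups overlapped in every comparison.

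Of 15 aldehyde dehydrogenases, 5 passed at least once: ALDH18A1 rose against control, ALDH1B1 fell against control and against the lower doses, and ALDH1L2, ALDH3A2 and ALDH5A1 fell at 40 Gy against the lower doses. By comparison, the counts were 1 up for all doses, 1 up at 20 Gy, 0 at 30 Gy (2 at an unadjusted p under 0.05), 1 up and 1 down at 40 Gy, and 4 down at 40 Gy against 20 and 30 Gy. The share called was 6.67% both over all doses and at 20 Gy, beside 4.71% and 4.23% of all genes. It was 13.3% at 40 Gy against control, beside 7.39% of all genes. At 40 Gy against the lower doses it was 26.7%, beside 21.5% of all genes (9.71% lower). The enzymes with the highest mean FPKM, ALDH1A1 (1237), ALDH1L1 (469) and ALDH2 (444), were not among them.

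ALDH18A1, the synthase that makes the proline precursor pyrroline-5-carboxylate from glutamate, lies on chromosome 14 from 107174062 to 107221373. It was at 0.571 and 1.16 FPKM in the controls, at 1.87, 2.57 and 1.93 FPKM after 20 Gy, at 2.5, 2.09 and 1.93 FPKM after 30 Gy, and at 2.92, 2.97 and 2.84 FPKM after 40 Gy. All irradiated libraries exceeded both controls, and the 40 Gy libraries were the highest. It rose by 0.75 ± 0.183 at 20 Gy (adjusted p = 0.0481), by 1.08 ± 0.183 at 40 Gy (0.00842) and by 0.87 ± 0.157 over all doses (0.0134), and the difference of 0.78 ± 0.183 at 30 Gy did not pass (0.0511).

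The call of ALDH18A1 at 20 Gy was lost in 17 of 21 alternatives, including the reduced set (0.245) and without any 1 library other than 40Gy-1 (0.0589 to 0.284). At 40 Gy and over all doses it was lost without control-1 (0.0771 and 0.164) and in the reduced set (0.0724 and 0.128).

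ALDH1B1, a mitochondrial enzyme that oxidises acetaldehyde, lies on chromosome 1 from 239109814 to 239114736. It was at 29 and 18.2 FPKM in the controls, at 20.7, 12.7 and 20.1 FPKM after 20 Gy, at 17.4, 15.1 and 21.3 FPKM after 30 Gy, and at 7.61, 8.41 and 8 FPKM after 40 Gy. Values at 40 Gy lay close together and below all others. At 40 Gy it fell by 1.41 ± 0.262 against control (adjusted p = 0.0124) and fell by 1.05 ± 0.203 against the lower doses (0.007). The first was lost without control-1 (0.111), and both in the reduced set (0.0724 and 0.131).

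ALDH1L2, the mitochondrial 10-formyltetrahydrofolate dehydrogenase, was at 3.68 and 2.9 FPKM in the controls, at 6.63, 3.38 and 6.81 FPKM after 20 Gy, at 4, 3.47 and 7.62 FPKM after 30 Gy, and at 1.62, 1.27 and 1.41 FPKM after 40 Gy. Lowest were the 40 Gy libraries, and the high values at 20 and 30 Gy were those of 20Gy-1, 20Gy-3 and 30Gy-3. Against the lower doses the 40 Gy group fell by 1.32 ± 0.245 (adjusted p = 0.00569; reduced set 0.0811). Its cytosolic counterpart ALDH1L1 was at 239 to 617 FPKM, with both ends of this range at 40 Gy, and a difference of -0.18 ± 0.29 from the lower doses (adjusted p = 0.681).

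ALDH3A2, the fatty aldehyde dehydrogenase, was at 194 and 167 FPKM in the controls, at 275, 224 and 236 FPKM after 20 Gy, at 195, 188 and 239 FPKM after 30 Gy, and at 147, 131 and 110.4 FPKM after 40 Gy. All 40 Gy libraries lay below all others. At 40 Gy it fell by 0.80 ± 0.166 against the lower doses (adjusted p = 0.00924; reduced set 0.166).

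ALDH5A1, which oxidises succinic semialdehyde, was at 40.6 and 15 FPKM in the controls, at 33.9, 42.7 and 33.2 FPKM after 20 Gy, at 40.1, 40.0 and 33.9 FPKM after 30 Gy, and at 17.8, 20.0 and 16.4 FPKM after 40 Gy. The 40 Gy libraries lay below those of the lower doses, and the controls lay on both sides of them. At 40 Gy it fell 2-fold on the FPKM + 1 scale (SE 0.258 in log2, adjusted p = 0.0226), a call lost without 40Gy-2 or 40Gy-3 (0.069 and 0.0855) and in the reduced set (0.177). GPLD1, at 6.84 to 22 FPKM, overlaps ALDH5A1.

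The other aldehyde dehydrogenases passed in no comparison. ALDH1A1, which makes retinoic acid and was the most abundant member, was at 1088 and 232 FPKM in the controls, at 1436 to 1684 FPKM after 20 Gy, at 1490.3 to 1682 FPKM after 30 Gy, and at 1790.4, 822 and 774 FPKM after 40 Gy. The libraries of 20 and 30 Gy lay above both controls, which differed more from each other than the libraries within 20 or 30 Gy did. The differences at both doses were 1.63 ± 0.56 (adjusted p = 0.129 and 0.169, reduced set 0.403 and 1). ALDH2, the main mitochondrial acetaldehyde dehydrogenase, was at 258 to 657 FPKM, and its groups overlapped in every comparison. The other retinaldehyde dehydrogenases, ALDH1A2 and ALDH1A3, reached at most 2.46 and 1.85 FPKM.

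ALDH7A1, of lysine breakdown, was at 105 and 109 FPKM in the controls, at 46.7, 38.6 and 61.4 FPKM after 20 Gy, at 53.6, 53.8 and 61.8 FPKM after 30 Gy, and at 30.0, 112 and 112 FPKM after 40 Gy. The libraries of the lower doses all lay below the controls, while 40Gy-1 was the lowest of all and 40Gy-2 and 40Gy-3 were the highest. The difference at 20 Gy was -1.14 ± 0.482 (adjusted p = 0.202, reduced set 0.401). ALDH4A1, of proline breakdown, and ALDH6A1, of valine breakdown, were also lower in 40Gy-1 (66.4 and 31.4 FPKM) than in 40Gy-2 (167 and 73.5 FPKM) and 40Gy-3 (127 and 73.9 FPKM).

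Aldo-keto reductases fell in 2 of 5 members at 40 Gy against control, where 4.41% of all genes fell, and against the lower doses 1 rose and 2 fell, where 21.5% of all genes passed. AKR1D1, the steroid 5-beta-reductase of bile acid synthesis, lies on chromosome 18 from 11416065 to 11532846. It was at 260.3 and 161 FPKM in the controls, at 139.6, 170.1 and 157 FPKM after 20 Gy, at 187, 189.8 and 160.1 FPKM after 30 Gy, and at 132, 72.6 and 75.8 FPKM after 40 Gy. Again the 40 Gy libraries were all below the others, with 40Gy-1 nearest to them.

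At 40 Gy AKR1D1 fell by 1.18 ± 0.299 against control (adjusted p = 0.0424) and fell by 0.88 ± 0.232 against the lower doses (0.0245). The first call was lost in 16 of 22 alternatives, including the reduced set (0.172) and without any 1 library other than 40Gy-1 (0.0535 to 0.265). The second was lost in 7 of 22, including the reduced set (0.205) and without 30Gy-1, 30Gy-2, 40Gy-2 or 40Gy-3 (0.0522 to 0.122).

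AKR7A2, which reduces succinic semialdehyde and other aldehydes, was at 296 and 195 FPKM in the controls, at 93.9, 167 and 100.3 FPKM after 20 Gy, at 170.4, 151 and 97.6 FPKM after 30 Gy, and at 119.9, 84.2 and 81.5 FPKM after 40 Gy. All irradiated libraries lay below both controls. It fell by 1.35 ± 0.344 at 40 Gy (adjusted p = 0.0427), a call lost in 14 of 22 alternatives, including the reduced set (0.127) and without any 1 library other than 20Gy-2, 30Gy-3 and 40Gy-1 (0.0606 to 0.253).

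AKR1A1, an aldehyde reductase, was at 108 and 116 FPKM in the controls, at 104, 151 and 101 FPKM after 20 Gy, at 149, 150.2 and 102 FPKM after 30 Gy, and at 79.1, 71.4 and 77.2 FPKM after 40 Gy. The 40 Gy libraries lay below all others. Expression at 40 Gy fell by 0.70 ± 0.19 against the lower doses (adjusted p = 0.0276), lost without 30Gy-1, 30Gy-2, 40Gy-2 or 40Gy-3 (0.0621 to 0.114) and in the reduced set (0.131).

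AKR1B1, the aldose reductase of the polyol pathway, was at 5.01 and 6.15 FPKM in the controls, at 1.88, 3.59 and 1.58 FPKM after 20 Gy, at 3.54, 2.65 and 1.56 FPKM after 30 Gy, and at 4.8, 4.25 and 4.84 FPKM after 40 Gy. The lower doses lay below the controls and the 40 Gy libraries lay between. It was higher at 40 Gy than at the lower doses by 0.74 ± 0.219 (adjusted p = 0.038). That call was lost in 13 of 21 alternatives, including the reduced set (0.25) and without any 1 library other than 20Gy-2 and 30Gy-1 (0.0509 to 0.115). AKR1E2, a reductase of 1,5-anhydrofructose, passed in no comparison and was at 6.89 FPKM in control-2 against 42.5 FPKM in control-1.

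**Figure D4:**
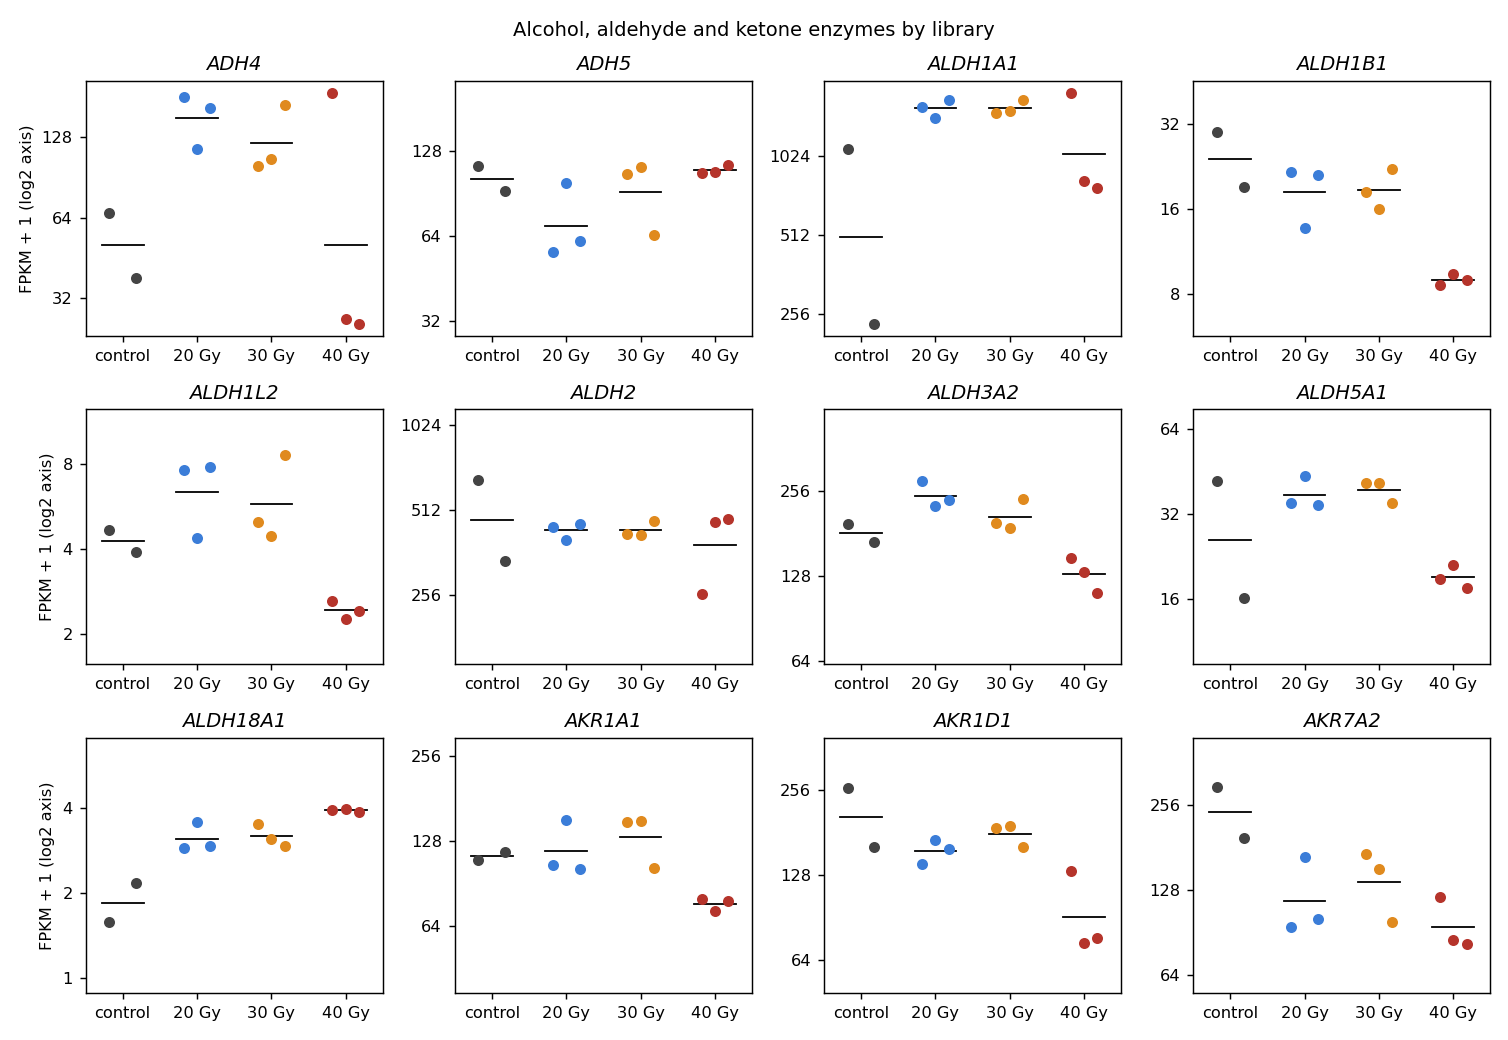
FPKM + 1 on a log2 axis for named alcohol dehydrogenases, aldehyde dehydrogenases and aldo-keto reductases by group. Points are libraries, bars are means of the log2 values, and each panel has its own range. ALDH1B1, ALDH3A2 and AKR1A1 are lowest in the 40 Gy libraries, and ALDH18A1 is lowest in the controls.

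The 13 members that were lower at 40 Gy than at the lower doses came from 6 of the 7 families: SULT1C2, SULT1E1, UGT8, GSTK1, GSTT4, GSTZ1, MGST3, ALDH1B1, ALDH1L2, ALDH3A2, ALDH5A1, AKR1A1 and AKR1D1. Those higher were SULT1A3, GSTM3 and AKR1B1. Some hepatocyte markers moved with the falling members: 4 of 9 (44.4%) were lower at 40 Gy than at 20 and 30 Gy, where 9.71% of all genes were lower. Among them were albumin (ALB, -1.94 ± 0.233, adjusted p = 0.000656) and transthyretin (TTR, -2.21 ± 0.435, adjusted p = 0.00751). The summed level was 29754 to 32709.8 FPKM at 40 Gy against 49027 to 66560.1 at the lower doses. None of the 4 passed in the reduced set (0.0663 to 0.207). Against control, 3 of 9 fell at 40 Gy (reduced set 0.0778 to 0.136). Of all genes 4.41% fell in that comparison with control. No hepatocyte marker in the table was at 0 in any library. Higher in 40Gy-2 and 40Gy-3 than in all other libraries were 2 genes of the list, the fibrinogen gene FGB (14372 and 16233 FPKM) and the urea cycle gene CPS1 (587 and 593 FPKM).

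Markers of other cells also differed between 40 Gy and the lower doses, in both directions, where 11.8% of all genes rose and 9.71% fell. Of 9 macrophage markers 3 rose (CD14, CD163 and CD68, with an adjusted p of 0.0127 to 0.0319 and of 0.183 to 0.202 in the reduced set), with sums of 924 to 1527 FPKM at 40 Gy, 539.9 to 1045 FPKM at 20 Gy and 554 to 944 FPKM at 30 Gy. Of 7 neutrophil markers 3 were in the table and all 3 rose, with sums of 7.71 to 17.9 FPKM at 40 Gy and at most 1.01 FPKM at the lower doses, where S100A8 was listed at 0 in 4 libraries and S100A12 in 2. CSF3R and S100A12 also passed in the reduced set (0.0235 and 0.0374). Of 3 B and plasma cell markers tested 2 rose, of which JCHAIN passed in the reduced set (0.0436), and 1 of 10 endothelial markers rose. Among T and NK cell markers 3 of 6 fell, and among erythroid markers 2 of 4, none of which passed in the reduced set (0.129 to 0.282 and 0.0849 to 0.139). Leaving out 40Gy-2 ended each of these macrophage, T and NK cell and erythroid calls, among them CD14 (0.074), CD3E (0.0573) and HBM (0.0524). CD163 was lost without 20Gy-1, 20Gy-3, 40Gy-2 or 40Gy-3 (0.0661 to 0.109). None of the stellate cell and bile duct markers passed in this comparison by limma (2 and 1 at an unadjusted p under 0.05). The part of these cells in the changes of the 38 members was not tested.

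**Figure D5:**
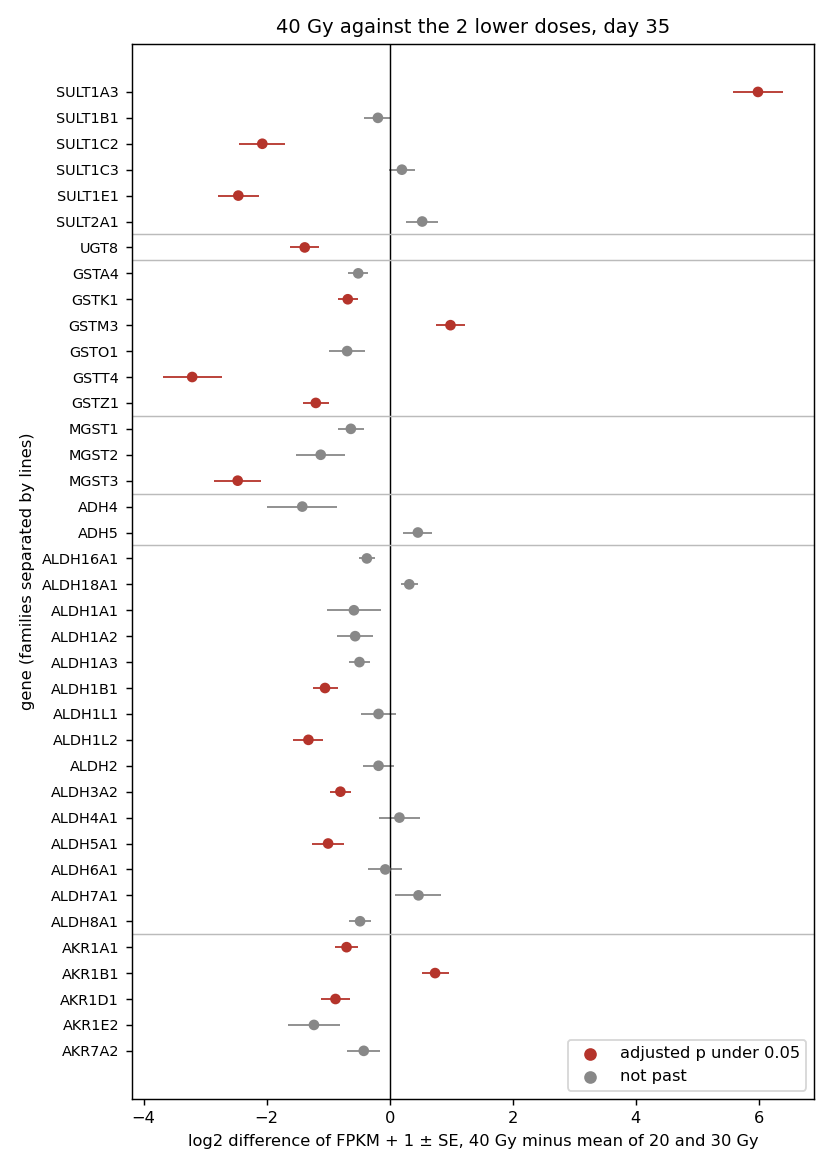
Difference between 40 Gy and the mean of 20 and 30 Gy in log2(FPKM + 1) for the 38 members, with bars of 1 SE; red marks an adjusted p under 0.05 (limma). SULT1A3 stands at 5.99 on the high side, and GSTT4, MGST3 and SULT1E1 stand at -3.21, -2.47 and -2.46 on the low side.

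Genes that supply the conjugating enzymes were followed through lists. Of 8 genes of PAPS supply, none passed against control by limma in any of the 4 comparisons (0 to 3 at an unadjusted p under 0.05), and at 40 Gy against the lower doses 1 rose and 1 fell (25%, beside 21.5% of all genes). PAPSS2, a PAPS synthase, was at 34 and 37.1 FPKM in 40Gy-2 and 40Gy-3, at 10.8 FPKM in 40Gy-1 and at 7.18 to 10.4 FPKM at the lower doses. It rose by 1.33 ± 0.349 against these (adjusted p = 0.0244), lost without 20Gy-1, 40Gy-2 or 40Gy-3 (0.053 to 0.122) and in the reduced set (0.195). SLC26A1, a sulfate transporter, fell by 1.96 ± 0.346 (adjusted p = 0.00465; reduced set 0.101).

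Of 6 genes listed for UDP-glucuronic acid supply, GUSB splits glucuronides and UXS1 uses up the donor. These were the genes that rose at 40 Gy against the lower doses (0.71 ± 0.13 and 0.94 ± 0.207, adjusted p = 0.00544 and 0.0121). UGDH, which makes UDP-glucuronic acid, rose at every dose against control. It was at 14.7 and 8.12 FPKM in the controls, at 29.1 to 45.8 FPKM after 20 Gy, at 35.8 to 44.8 FPKM after 30 Gy, and at 32 to 34.2 FPKM after 40 Gy, with all irradiated libraries above both controls. The rises were 1.67 ± 0.26, 1.76 ± 0.26 and 1.53 ± 0.26 (adjusted p = 0.00653, 0.00638 and 0.00875). They were lost without control-2 (0.0643, 0.0656 and 0.0677) and in the reduced set (0.114, 0.387 and 0.0607). At 40 Gy against the lower doses 2 of the 6 rose (11.8% of all genes did) and none fell, and neither rise passed in the reduced set (0.142 and 0.154).

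Of 12 genes of glutathione supply 11 were tested. Against control 2 rose at 20 Gy, namely OPLAH and CHAC1, the latter an enzyme that degrades glutathione. At 30 Gy 1 rose (OPLAH), and at 40 Gy 1 rose (GCLM). Of all genes 2.03%, 1.32% and 2.99% rose at 20, 30 and 40 Gy. At 40 Gy against the lower doses 2 fell (18.2%), where 9.71% of all genes fell. None of the rises against control passed in the reduced set (0.0709 to 0.476), and the rise at 40 Gy, that of GCLM, was lost without any 1 library other than 20Gy-2 and 40Gy-1 (0.0502 to 0.161). OPLAH, which returns 5-oxoproline to glutamate, was at 20.8 and 20.5 FPKM in the controls, at 50.5 to 52.7 FPKM after 20 Gy, at 41 to 49.9 FPKM after 30 Gy, and at 15.5 to 16.5 FPKM after 40 Gy. None of the 4 groups overlapped. It fell at 40 Gy against the lower doses by 1.54 ± 0.123 (adjusted p = 0.000101), which also passed in the reduced set (0.0171). CHAC1, which breaks glutathione down, was at 3.01 to 13.9 FPKM after 20 and 30 Gy, and at most 1.38 FPKM in the controls and after 40 Gy. It fell by 2.11 ± 0.437 at 40 Gy against the lower doses (adjusted p = 0.0092; reduced set 0.111).

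Other alcohol, aldehyde and ketone enzymes, mostly short-chain dehydrogenases outside the 7 families, fell in 8 of 20 genes tested at 40 Gy against control and in 12 of 20 against the lower doses, where 1 rose. Of all genes 4.41% and 9.71% fell in these comparisons. In the reduced set none of the 8 passed (0.0676 to 0.171), and of the 13 changed against the lower doses CBR1, DHRS4 and DHRS7 did. Their median log2 difference was -1.01 and -0.85, beside 0.06 and 0.07 over all genes. DHRS7, a short-chain dehydrogenase, was at 20.0 and 7.08 FPKM in the controls, at 56.6 to 65.5 FPKM after 20 Gy, at 60.4 to 65.7 FPKM after 30 Gy, and at 13.4, 3.27 and 3.87 FPKM after 40 Gy. The lower doses lay above all other libraries. At 40 Gy it fell by 3.22 ± 0.388 against them (adjusted p = 0.000668; reduced set 0.0374).

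HSD17B10, a mitochondrial hydroxysteroid and hydroxyacyl-CoA dehydrogenase, was at 1847 and 1530.3 FPKM in the controls, at 389 to 605 FPKM after 20 Gy, at 416 to 604 FPKM after 30 Gy, and at 727 to 913 FPKM after 40 Gy. All irradiated libraries lay below both controls. It fell by 1.52 ± 0.231 over all doses (adjusted p = 0.00591), lost without control-1 or control-2 (0.0544 to 0.0753) and in the reduced set (0.109).

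Of 8 other conjugating enzymes tested, none passed against control by limma (1 to 3 at an unadjusted p under 0.05). NNMT, the nicotinamide methyltransferase, was at 300.2 to 823 FPKM at the lower doses and at 952, 2340.1 and 2772 FPKM after 40 Gy, where all libraries lay higher. It rose by 1.84 ± 0.442 at 40 Gy against the lower doses (adjusted p = 0.017). The call was lost without 40Gy-2 or 40Gy-3 (0.0793 and 0.0872) and in the reduced set (0.187).

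At 40 Gy against the lower doses, where 21.5% of all genes passed, 4 of 11 further enzymes of foreign compounds fell and 1 rose, and of these CYB5R3 alone passed in the reduced set (0.0373). Of 10 transporters of conjugates, 3 fell and 1 rose, none of them in the reduced set (0.0662 to 0.196). Of 17 regulators 3 fell (17.6%), where 9.71% of all genes fell, and none rose. AHR, the receptor for dioxin-like compounds, was at 12.3 and 4.82 FPKM in the controls. It was at 21 to 29.7 FPKM after 20 and 30 Gy, and at 5.49 to 8.01 FPKM after 40 Gy, within the controls. Against control it rose at 20 Gy (1.49 ± 0.313, adjusted p = 0.028) and 30 Gy (1.78 ± 0.313, 0.015), both lost without 30Gy-1 or 30Gy-2. The falls at 40 Gy were those of AHR (-1.83 ± 0.242, adjusted p = 0.00107) and the nuclear receptors NR1I2 (-1.03 ± 0.235, 0.0136) and NR1I3 (-1.50 ± 0.461, 0.043). Their adjusted p was 0.0517, 0.176 and 0.238 in the reduced set. NR1I2 was lost without 40Gy-2 or 40Gy-3 (0.0646 and 0.0775), and NR1I3 without any 1 library other than 40Gy-1 (0.056 to 0.202).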

How the data were processed

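The authors deposited 1 table of FPKM for 12505 genes and 11 libraries, and each of its 11 value columns carries 1 library's name. The submitters' processing notes list HISAT2, Cufflinks, HTSeq and the builds Sscrofa11.1 and mm10 but no roles, and the gene IDs are those of pig. The versions are listed as 2.104 for HISAT2 and 2.2.15 for Cufflinks, with none for HTSeq. For annotation, strand setting and gene filters nothing is given in the sources used. Since FPKM is per gene length and per library, levels can be compared between genes, and very abundant genes lower all others. The FPKM of a library summed to 520839 to 949840. No whole-read steps were found, so depth is unknown.

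Symbols were paired with 10561 of 12505 IDs. Coordinates are those of the RefSeq gene table of Sscrofa11.1, matched by symbol for 35 of 39 genes.

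The 11644 genes that reached 1 FPKM in 2 or more libraries were fitted as log2(FPKM + 1) with 4 group means in limma 3.58.1 (R 4.3.3; eBayes with trend, 7 residual degrees of freedom, two-sided), and p-values were adjusted by Benjamini-Hochberg over all of them. The log2 scale with 1 added understates changes of low genes. The code was tested on simulated data.

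Named members were SULT1A3, SULT1B1, those with an adjusted p under 0.05 in any comparison and the 3 most abundant of each family, with others named for their level. Genes of the lists were named only where they passed, and 1 of them is not reported here. Members and lists were chosen with earlier results of these data known. Alternatives changed the pseudocount, filter, scaling, variance model, replicate block and samples, including each library left out.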

Additional observations from a re-analysis of the deposited data

How the results depend on the processing

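For the 22 members called at least once, no called value changed sign over the alternatives, whereas values that were not called did so 32 times. In 2134 cases a value kept its side of the threshold, in 200 it lost it and in 39 it gained it. Apart from SULT1B1, 2 of 39 calls passed in every alternative. Leaving out both 20Gy-3 and 30Gy-3, 3 members passed for irradiated against control and 3 at 20 Gy. With 30Gy-1 and 30Gy-2 also averaged, the counts were 1 for irradiated against control, 2 at 20 Gy, 0 at 30 Gy (6 at an unadjusted p under 0.05), 1 at 40 Gy and 1 at 40 Gy against 20 and 30 Gy. With a mean of at least 5 FPKM, 3 passed at 20 Gy. With only the groups compared, 0 passed at 40 Gy against control by limma (16 at an unadjusted p under 0.05). Irradiated against control uses every group and has no such value, and members under a mean of 5 FPKM have none under the stricter filter. Leaving out 1 library gave 3 to 15 members for irradiated against control, 2 to 10 at 20 Gy, 1 to 10 at 30 Gy, 2 to 17 at 40 Gy and 10 to 24 at 40 Gy against the lower doses. With the replicate number as a block, the counts were 5, 4, 4, 10 and 17. In their deviations from the group means, 15 same-numbered pairs correlated at -0.616 to 0.645, and 5 of 11 libraries correlated best with their own number. Deviations from a mean cancel within each group, so these correlations cannot decide whether the numbers pair the libraries. With depth unknown, low genes such as GSTM3, ALDH18A1 and SULT1B1 have no counting interval.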

Other observations

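Libraries within 20 and 30 Gy differed from each other over the 38 members in a way that the dose labels do not follow. The median absolute log2 difference of 20Gy-1 was 0.174 to 20Gy-3 and 0.164 to 30Gy-3, and 0.359 to 20Gy-2. Between 20Gy-2 and 30Gy-1 it was 0.195, and between 30Gy-1 and 30Gy-2 it was 0.0639. ADH5 was at 55.2, 60.6 and 63.6 FPKM in 20Gy-1, 20Gy-3 and 30Gy-3, and at 97.8, 106 and 111 FPKM in 20Gy-2, 30Gy-1 and 30Gy-2. AKR7A2 was at 93.9, 100.3 and 97.6 FPKM in the first of these sets and at 167, 170.4 and 151 FPKM in the second. ALDH1L2 was at 6.63, 6.81 and 7.62 FPKM in the first and at 3.38, 4 and 3.47 FPKM in the second. These values are given as a description, without a test, since the sets were seen in the data.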
